A study of Mus musculus with 24 samples.

Results

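The cytosolic ribosomal protein genes encode the protein part of the ribosome that works in the cytoplasm. They were taken as the protein-coding genes whose mouse symbol begins with Rpl or Rps followed by a number, with at most a single subunit letter and digit after it, plus Rpsa, Rplp0, Rplp1 and Rplp2, if they held at least 240 reads over the 24 libraries. This gave 81 of the 55385 annotated genes, 49 of the large and 32 of the small subunit. Of 89 symbols that matched, 6 were not protein-coding, and Rpl10l with 0 reads and Rpl39l with 46 reads fell below the minimum. RNA was sequenced from the gastrocnemius, a calf muscle, of C57BL/6J mice, with 1 library per mouse and 4 mice in each of 6 groups. Mice of 3 ages carried an AAV8 vector for green fluorescent protein: 3–6 months in the young GFP group, 21–24 in the old GFP group and 27–29 in the oldest-old GFP group. At the 2 later ages, further mice (old KL and oldest-old KL) carried the same kind of vector for murine Klotho, a circulating protein that declines with age. Both vectors used LP1, a liver promoter, and were given through the tail vein 14 days before the muscles were taken. The Klotho sequence was codon-optimised, so reads on the mouse gene Kl may not show it. The young sham group is known from the sample labels only, and what those mice received is not described. All GFP and KL mice were female. Xist, a transcript of the inactive X chromosome, had 4929 to 10404 reads in every library and the Y-linked Ddx3y had 0 in all 24, young sham included.

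A ribosome holds a single copy of most of these proteins, and their genes are among the most evenly expressed in the genome. Most of their mRNAs start with a C followed by an unbroken run of pyrimidines, the 5′ terminal oligopyrimidine (TOP) tract, through which mTORC1 and the RNA-binding protein LARP1 control their translation. Skeletal and cardiac muscle add a peculiarity: Rpl3l encodes a muscle-specific relative of RPL3, the large-subunit protein that reaches towards the peptidyl transferase centre, and takes its place in part of the muscle fibre's ribosomes. Bulk libraries measure relative mRNA, and fewer cells of a type cannot be told apart from less RNA per cell.

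Rpl3 lies on the minus strand of chromosome 15 (chr15:80077791-80091868, GRCm38) and Rpl3l on the plus strand of chromosome 17 (chr17:24727820-24736143). Their coding sequences, of 1209 and 1221 bases, were identical at 73.1% of 1225 aligned columns. They are shown from the start codon to make clear that the 2 mRNAs can be told apart by sequence. Capitals mark the 7 of 30 bases that differ.
Rpl3: atgtcTcacAggaaAttctcAgcTccCAgg
Rpl3l: atgtcCcacCggaaGttctcTgcCccTCgg
No stretch of 50 bases is common to both transcripts. Of the 50-base stretches of Rpl3, however, 85.6% also occur in 26 other annotated genes, against 0% for Rpl3l. The authors' counts hold uniquely placed reads only, so a read that lies wholly within such a stretch is not counted for Rpl3.

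Start-site sequences from RefSeq (GRCm38.p6) could be matched for 61 members. A C followed by at least 6 further C or T, searched on the gene's own strand from 30 bases before to 50 bases after the annotated start, was found in 48 of them (78.7%), against 37.0% of 27025 genes in the same window. The windows below show Rps6, the small-subunit protein phosphorylated downstream of mTORC1, the longest tract found beside Rpl34, in Rpl27a, and members named in the results. Capitals mark the run.
Rps6 (chr4:86857349-86857378, minus strand): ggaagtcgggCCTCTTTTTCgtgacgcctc
Rpl27a (chr7:109519186-109519215, plus strand): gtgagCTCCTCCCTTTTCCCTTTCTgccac
Rpl15 (chr14:18270967-18270996, minus strand): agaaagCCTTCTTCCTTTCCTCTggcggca
Rpl35a (chr16:33056469-33056498, plus strand): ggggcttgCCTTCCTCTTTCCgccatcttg
Rps23 (chr13:90923142-90923171, plus strand): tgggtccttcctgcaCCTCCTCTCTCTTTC
Rps27 (chr3:90213631-90213660, minus strand): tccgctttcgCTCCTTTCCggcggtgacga
Rps27l (chr9:66946054-66946083, plus strand): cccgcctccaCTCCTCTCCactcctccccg
Rpl3l (chr17:24727846-24727875, plus strand): tggtggggaggCCCCTTCCTaacctgcagg
Only windows with a run are shown. No run was found in the windows of Rplp0, Rpl22, Rpl24, Rpl7l1, Rps13, Rps16, Rps4x and Rpsa, which are also named in the results. Rpl3l, Rps27l and Rpl35a each have a further RefSeq start without a run. The run of Rpl3l lies 31 bases past the RefSeq start, that of Rps6 1 base before it. Such a run is a match of letters in a window, not a mapped start.

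Reads on genes numbered 36415886 to 59733985 a library, of which the members took 0.989% to 1.41%. Muscle fibre transcripts were abundant in every library: a list of 10 markers, among them Acta1, Ckm and Myh4, summed to 131211 to 189542 CPM (counts scaled to a common library size, here with edgeR's TMM factors). Some libraries stood apart. Transcripts of hepatocytes (8 of 8 markers) summed to 874 and 92.2 CPM in old GFP libraries 1 and 4 and to 140 CPM in old KL library 4, against at most 22.9 in every other library. Keratinocyte markers reached 282 CPM in young GFP mice. The summed level of the 81 members was 13092 CPM in oldest-old GFP library 4 and 10800 to 11030 in the other 3 of that group, and results that rest on this library are given with and without it. That library was picked by the members' own level, so leaving it out lowers the members in its group by choice. Counts without it are a description and not a test.

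Rpl3l was the dominant form by reads in all 24 libraries. Its level was 436, 433, 399 and 449 CPM in young GFP mice and 383, 376, 385 and 390 CPM in old GFP mice. It was 370, 406, 376 and 347 CPM in oldest-old GFP mice. Young GFP mice were the highest of these 3 groups, and a single oldest-old library reached into their range. Young sham mice had 448, 373, 394 and 375 CPM, so that 3 of these 4 young libraries lay within the range of the oldest-old. Young GFP against young sham gave a log2 fold change of 0.11 ± 0.065 SE for Rpl3l (edgeR, adjusted p = 0.462), and the age comparisons below rest on young GFP mice as the young group. Rpl3l was lower in oldest-old than in young GFP mice by edgeR's quasi-likelihood test (log2 fold change -0.20 ± 0.065 SE, 0.873-fold, adjusted p = 0.0472, lower in 3 of 4 oldest-old libraries than every young library). Of all 17803 genes tested, 14.9% passed the same threshold in this comparison, 8.8% higher and 6.08% lower. Old against young GFP gave -0.16 ± 0.065 (adjusted p = 0.167), without overlap between the groups. The oldest-old call was marginal: the adjusted p passed 0.05 in 12 of the 24 fits that each left out 1 library, at most 0.132 without young GFP library 4, and the value stayed between -0.26 and -0.18.

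**Figure D1:**
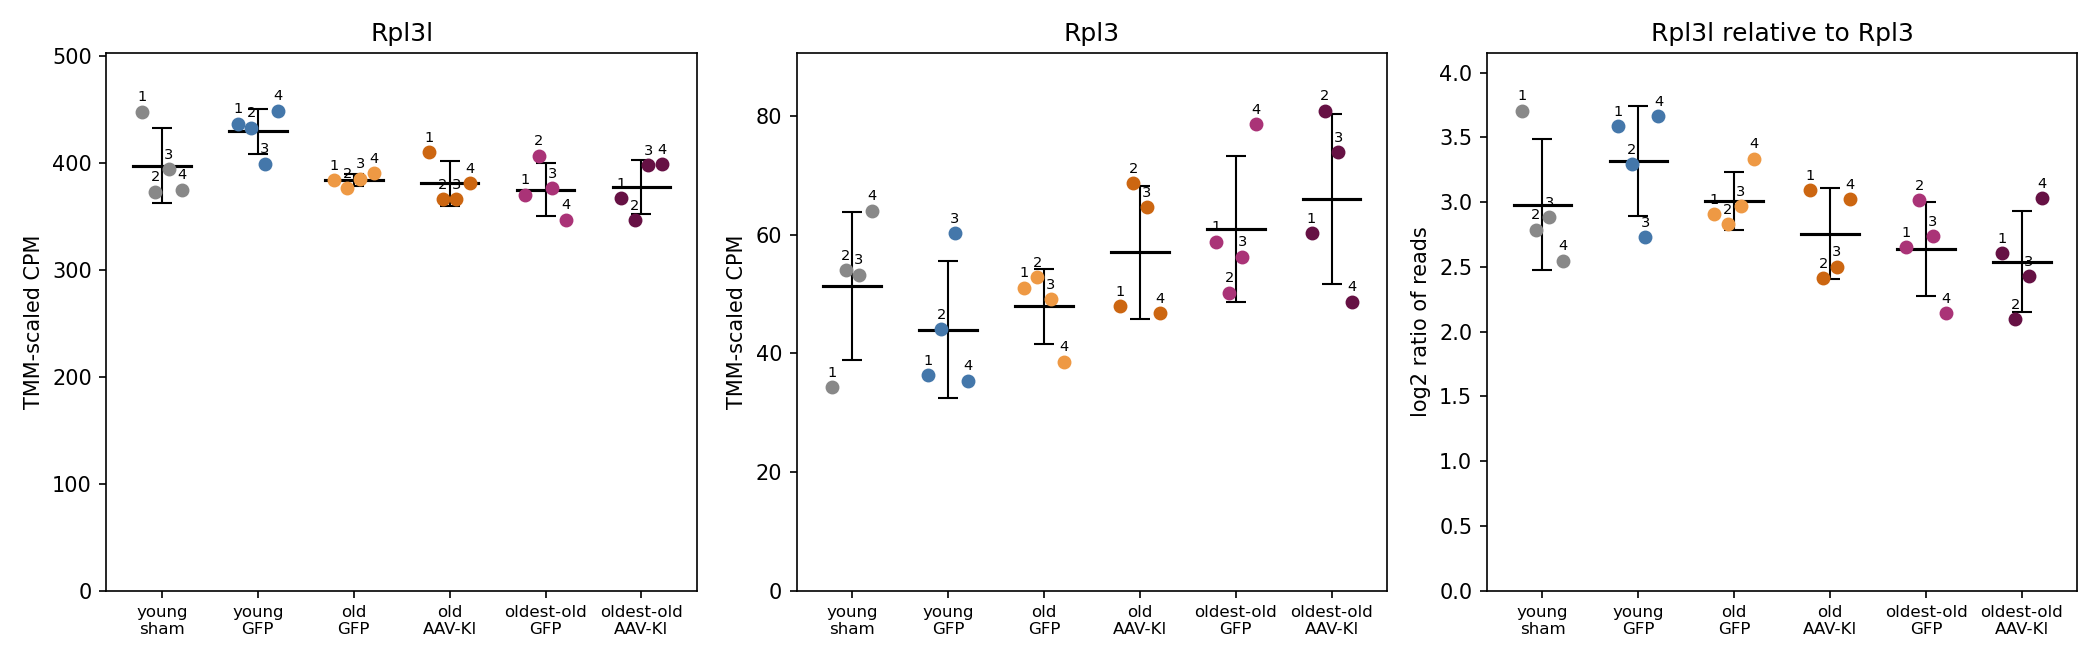
Level of Rpl3l (left) and Rpl3 (middle) in TMM-scaled CPM and the log2 ratio of their reads (right) in each library of the 6 groups, with the mean and SD (n = 4) as bars and the library number at each point. Rpl3l was between 346 and 449 CPM in all libraries, and Rpl3 between 34.3 and 80.9 CPM.

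Rpl3, the form used by most other tissues, varied far more. It was 36.3, 44.1, 60.2 and 35.4 CPM in young GFP mice and 51.1, 52.9, 49.1 and 38.6 CPM in old GFP mice. It was 58.8, 50.3, 56.3 and 78.6 CPM in oldest-old GFP mice. All 3 groups overlapped, young and oldest-old through young GFP library 3 alone. The log2 fold change from young to oldest-old GFP mice was 0.47 ± 0.21 SE (edgeR, adjusted p = 0.128, 95% interval 0.043 to 0.90). The SD of log2 CPM within groups was 0.31 for Rpl3, the third highest of the 81 members, behind Rps10 and Rpl24 with few reads, and the median member had 0.098. Rpl3l, at 0.087, ranked 62.

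Set against each other within a library, Rpl3l had 9.98 times the reads of Rpl3 in young GFP mice (geometric mean, n = 4), 8.06 times in old GFP mice and 6.22 times in oldest-old GFP mice. In young sham mice the ratio was 7.90, in old KL mice 6.76 and in oldest-old KL mice 5.81. Single libraries lay between 4.27 and 13.1, and neighbours in this order overlapped. On the log2 scale the ratio was 3.32 ± 0.42 (SD, n = 4) in young GFP and 2.64 ± 0.37 in oldest-old GFP mice, a difference of -0.68 that did not pass the two-sided exact permutation test (p = 0.0857, 0.429 after Benjamini-Hochberg adjustment over 6 comparisons, with 0.0286 the smallest p that 4 against 4 allow). Old against young GFP gave -0.31 (exact p = 0.257) and oldest-old against old GFP -0.37 (exact p = 0.143). Old KL against old GFP gave -0.25 (exact p = 0.286), oldest-old KL against oldest-old GFP -0.098 (exact p = 0.686), and young GFP against young sham 0.34 (exact p = 0.400). None of the 6 differences passed this test, before or after adjustment.

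How much Rpl3l exceeded Rpl3 depended on the shared stretches. Per kilobase of transcript (1375 and 1351 bases), Rpl3l stood at 284 ± 20.7 CPM (SD, n = 24) and Rpl3 at 40.4 ± 9.52 CPM, a median ratio of 7.13 with Rpl3l higher in 24 of 24 libraries. Counted over the 188 positions of Rpl3 whose 50-base stretch is found in no other gene, Rpl3 stood at 290 ± 68.4 CPM per kilobase. The read length is not given in the sources used here, and the share of stretches found elsewhere depends on the 50 bases chosen. On that scale, chosen after seeing the shared stretches, the median ratio was 1.03, with a range of 0.606 to 1.85 and Rpl3l higher in 13 of 24 libraries. The order of the 2 genes within a library is therefore not settled by these counts.

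Within groups, Rpl3 and Rpl3l moved in opposite directions. This relation and those that follow were chosen after seeing the values by library. After subtraction of group means, Pearson's r between their log2 CPM over 24 libraries was -0.82 and Spearman's rho -0.81 (permutation within groups, p = 0.00015 and p = 0.00024, adjusted over 19 relations 0.000712 and 0.00114), and r was -0.76 without the 2 libraries farthest from the median. The same contrast held for the other pair of general and muscle forms, the elongation factors Eef1a1 and Eef1a2, which deliver aminoacyl-tRNA to the ribosome. Of the 50-base stretches of Eef1a1, 59.2% also occur in 20 other annotated genes, against 0% for Eef1a2. Counts of Eef1a1 thus lose reads as those of Rpl3 do, and the part of this in the relations was not tested. Rpl3 rose and fell with Eef1a1 (r = 0.92, rho = 0.90) and against Eef1a2 (r = -0.85, rho = -0.85), with permutation p = 1e-05 for each of these 4 coefficients, the smallest that 100000 permutations allow. With the mean of the other 79 members r was 0.63 for Rpl3 (rho 0.63, adjusted p = 0.00304 and 0.00399) and -0.45 for Rpl3l (rho -0.47, adjusted p = 0.0834 and 0.0699). Without the 2 farthest libraries these 4 values of r were 0.90, -0.81, 0.72 and -0.54.

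**Figure D2:**
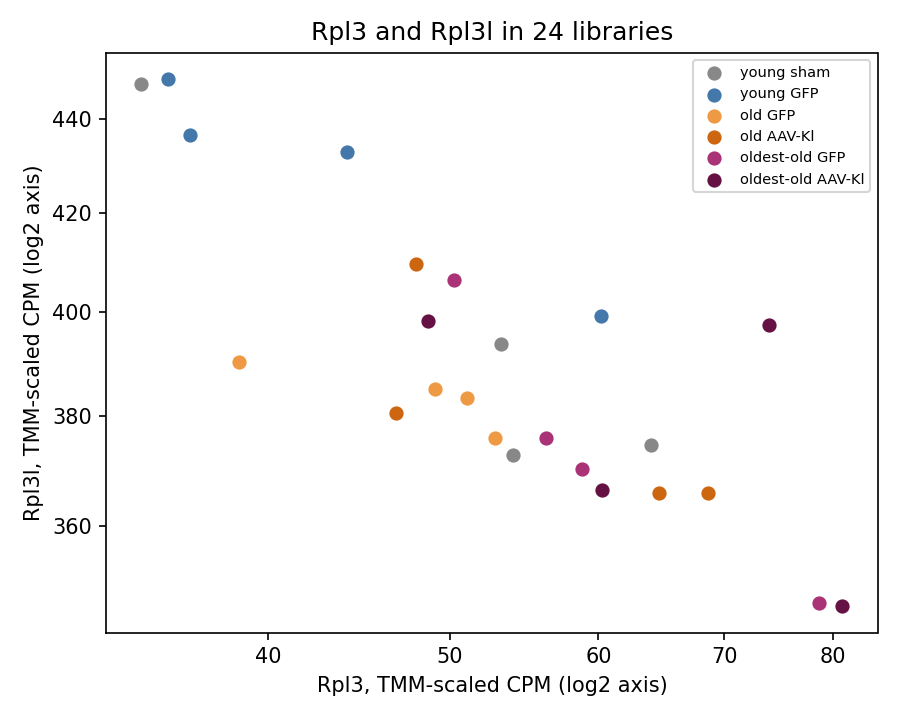
Rpl3 against Rpl3l in TMM-scaled CPM on log2 axes, with 1 point per library and the 6 groups in colours. Libraries high in Rpl3 were low in Rpl3l within and across groups, with Pearson's r of -0.82 on deviations from group means.

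Muscle and non-muscle markers moved with Rpl3 as well. The summed level of the 10 muscle fibre markers fell where Rpl3 was high (r = -0.81, rho = -0.80, permutation adjusted p = 0.00038 and 0.000127). Markers of neutrophils (r = 0.68), adipocytes (r = 0.67) and endothelial cells (r = 0.66) rose with it, with permutation adjusted p of 0.00282, 0.0061 and 0.00304 for r and 0.00399, 0.00825 and 0.00632 for rho. Markers of B and plasma cells passed by r (0.60, permutation adjusted p = 0.0238) and not by rho (0.48, adjusted p = 0.072). For the other 8 marker lists r lay between -0.11 and 0.50 and did not pass after adjustment. Adipocyte markers, for instance, ranged from 170 to 706 CPM among young GFP mice, and neutrophil markers stayed between 0.0859 and 12.4 CPM in all libraries. The part of these cells in the level of Rpl3 was not tested.

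Across the 81 members, levels per kilobase spanned from Rpl24 at 0.330 to Rplp0 at 486 CPM, with a median of 136. The highest were Rplp0 (486) and Rplp1 (447), both of the P stalk that recruits translation factors, and Rps2 (407), which lies near the mRNA entry channel. Per kilobase of unshared stretches the order differed, with Rps2 at 1484 CPM above Rplp0 at 866, and Rps27, with only 4 unshared positions, above both. The lowest were Rpl24 (0.330), Rps10 (0.428) and Rpl13a (3.26), with only 268, 472 and 4084 reads in all libraries together. These 3 share 71.5%, 53.6% and 59.3% of their exon bases with another gene model on the same strand (Gm28037, RPS10-NUDT3 and Gm45713), and reads that fit 2 genes are not counted by STAR, so their low values cannot be read as low expression. Rpl22l1, at 8.03 CPM per kilobase, overlaps a gene on the opposite strand and held 2.26 times as many reads when the counts of both strand columns were added.

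Differences between groups were small beside these. The highest group mean of a member was between 1.06 and 1.99 times the lowest, with an upper quartile of 1.16 over the 81 members. Oldest-old KL mice had the highest mean for 40 members and oldest-old GFP mice for 29, while young sham mice had the lowest for 49 and old GFP mice for 19. Leaving out oldest-old GFP library 4, oldest-old KL mice had the highest mean for 62 members and oldest-old GFP mice for 2. The summed level was 11046 ± 318 CPM (SD, n = 4) in young GFP, 10673 ± 228 in old GFP and 11437 ± 1108 in oldest-old GFP mice, where it was 10886 ± 126 (SD, n = 3) without library 4. It was 10471 ± 238 in young sham, 10935 ± 782 in old KL and 11536 ± 492 in oldest-old KL mice. Large- and small-subunit genes kept step: the ratio of their sums lay between 1.49 and 1.59 in all 24 libraries.

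**Figure D3:**
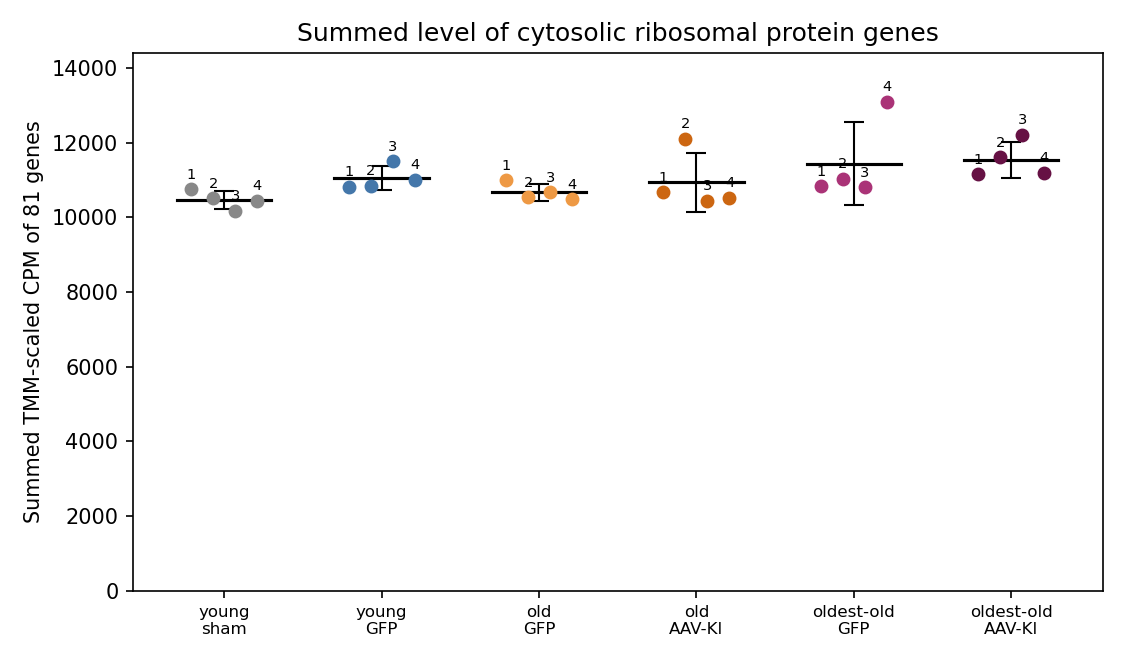
Summed TMM-scaled CPM of the 81 genes in each library of the 6 groups, with the mean and SD (n = 4) as bars and the library number at each point. Oldest-old GFP library 4 reached 13092 CPM and old KL library 2 reached 12100 CPM, each above the other 3 of its group.

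From young to old GFP mice the members had a median log2 fold change of -0.040 (62 of 81 below 0), against 0.0021 over all genes tested. This is less than the SD of the members' mean log2 CPM between libraries of a group (0.077, pooled over all 6 groups). The old and young GFP groups overlapped in that mean. None of the 81 passed an adjusted p of 0.05 in edgeR, where 4.7% of all genes did (3.21% higher). DESeq2 called 1, Rpl39, but the share of all genes it called is not given here, so that call has no background. At an unadjusted p under 0.05, 7 members were lower and 0 higher (8.25% and 10.8% of all genes). In 8 members (9.88%) every old library was lower than every young one, and 6.91% of all genes did the same. In 0 members was every old library higher (8.69% of all genes). The 7 were Rpl39, which lines the peptide exit tunnel, Rpl3l, Rps23 of the decoding centre, the stalk genes Rplp1 and Rplp2, Rps2 and Rps7, with log2 fold changes of -0.21 (Rpl39) to -0.12 (Rps2) and adjusted p of 0.101 to 0.259. Without old GFP libraries 1 and 4, which carried hepatocyte transcripts, the median was -0.065 and 0 members were called (share of all genes not given here).

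From young to oldest-old GFP mice the median was 0.053 (66 of 81 above 0), against 0.027 over all genes. Apart from Rpl3l, 1 member passed the adjusted threshold, Rps20, a protein of the head of the small subunit (chr4:3831334-3835665, minus strand). Rps20 was 101, 103, 116 and 105 CPM in young GFP mice and 111, 124, 129 and 146 CPM in oldest-old GFP mice. Oldest-old libraries were the higher except that the lowest of them lay below young GFP library 3. The log2 fold change was 0.26 ± 0.081 SE (1.20-fold, edgeR, adjusted p = 0.036), and it was 0.17 (adjusted p = 0.184) without oldest-old GFP library 4. It lost the call in 18 of the 24 fits that each left out 1 library. So 2 of 81 members (2.47%) were called where 14.9% of all genes were, and 4 (4.94%) at an unadjusted p under 0.05 against 29.8%. The other 2 of these 4 were Rps25 (0.18 ± 0.075, adjusted p = 0.119), a small-subunit protein needed by some viral internal ribosome entry sites, and Rpl3. Groups did not overlap in 0 members, against 18.4% of all genes (10.4% higher). With DESeq2's size factors in edgeR Rpl3l alone was called, with DESeq2 itself both were, and without oldest-old GFP library 4 neither was. In the last of these fits 9.99% of all genes were called, and for the others that share is not given here.

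Between old and oldest-old GFP mice 78 of 81 members had a log2 fold change above 0, with a median of 0.11 against 0.020 for all genes. None passed the adjusted threshold in edgeR (0.00562% of all genes) or in DESeq2. At an unadjusted p under 0.05, 6 were higher and 0 lower (6.72% and 5.27% of all genes, 12% together). Among them were Rplp0 (0.24 ± 0.075 SE, adjusted p = 0.26), Rps16 (0.19), Rps20 (0.18) and Rps23 (0.16). In 3 members (3.7%) every oldest-old library was the higher, as in 3.12% of all genes, and in 0 the lower (2.52%). With library 4 of the oldest-old GFP group left out, 2 members were higher and 2 lower without overlap (4.64% and 3.94% of all genes), and the 6 at an unadjusted p under 0.05 became 1. With library 2 left out instead they became 18. The share of all genes at that p was not counted in either fit, so these 2 counts have no background. The comparisons share groups, so the 3 medians are not independent of each other.

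**Figure D4:**
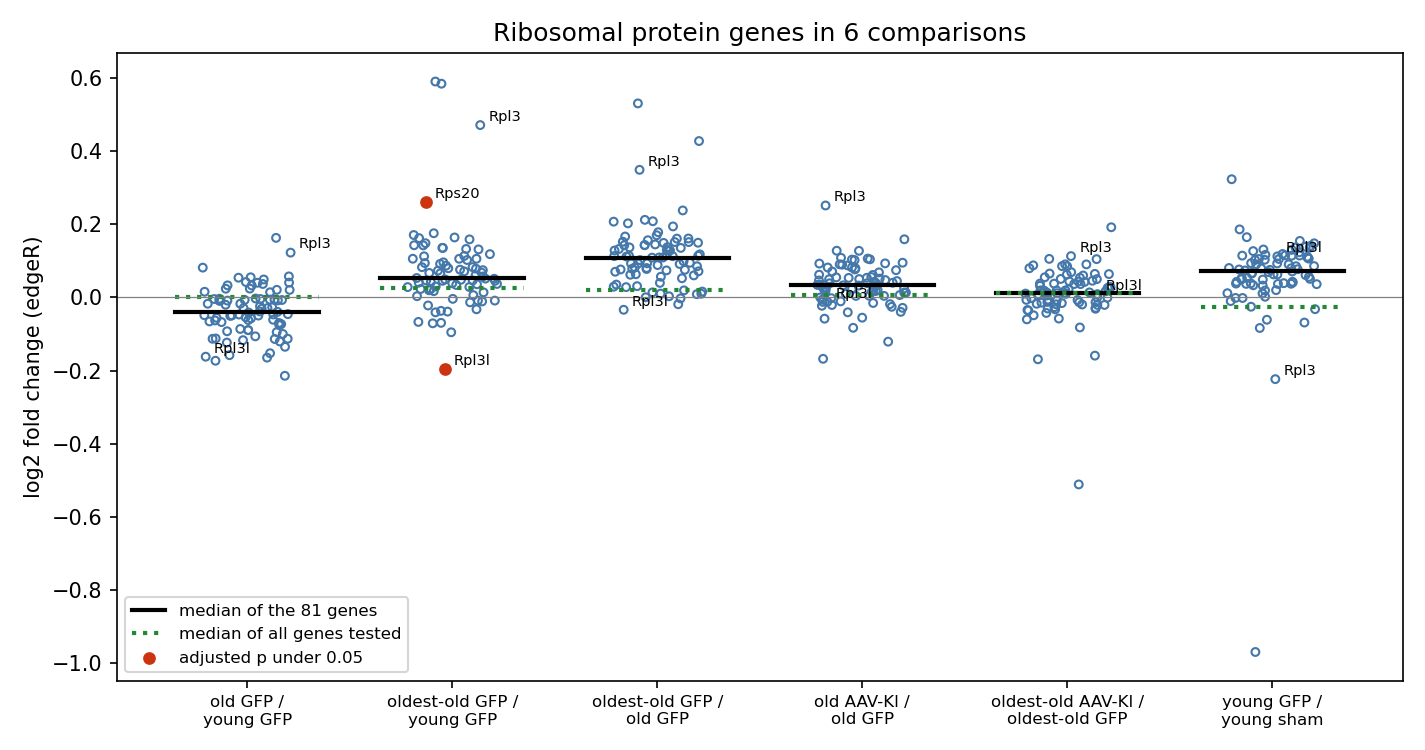
Log2 fold changes of the 81 members in the 6 comparisons, 1 point per gene, with the median of the members (black bar) and of all 17803 genes tested (green dotted bar). The 2 filled red points in oldest-old against young GFP mice are Rps20 (0.26) and Rpl3l (-0.20), and the lowest point in young GFP against young sham mice is Rps10 (-0.97), a gene of 472 reads.

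The upward shift in oldest-old GFP mice rested on library 4. For 75 of the 81 members that library was the highest of its group. Without it the median from young to oldest-old GFP mice was -0.031 in place of 0.053, with 23 of 81 members above 0, 7 members lower without overlap and 0 higher (11.6% and 12.8% of all genes). From old to oldest-old GFP mice it was 0.025 in place of 0.11, with 55 of 81 above 0. Medians over all genes are not given for fits that left out a library, so these shifts have no background. Leaving library 4 out also moved comparisons that do not use it. In old against young GFP mice, for instance, the median of translation initiation factors went from 0.027 to 0.011. Library 4 was also the highest of its group in the summed levels of translation initiation factors (6519 against 5364 to 5578 CPM), elongation factors (6911 against 5636 to 5817 CPM) and ribosome biogenesis genes (1634 against 1214 to 1337 CPM). It was the lowest in muscle fibre markers (131211 against 146156 to 164626 CPM) and the highest in neutrophil markers (9.62 against 0.796 to 3.29 CPM). Of its reads 3.52% lay outside genes (2.79% to 3.02% in the others) and 9.78% mapped to several places (10.97% to 11.5%). What set this library apart was not tested.

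**Figure D5:**
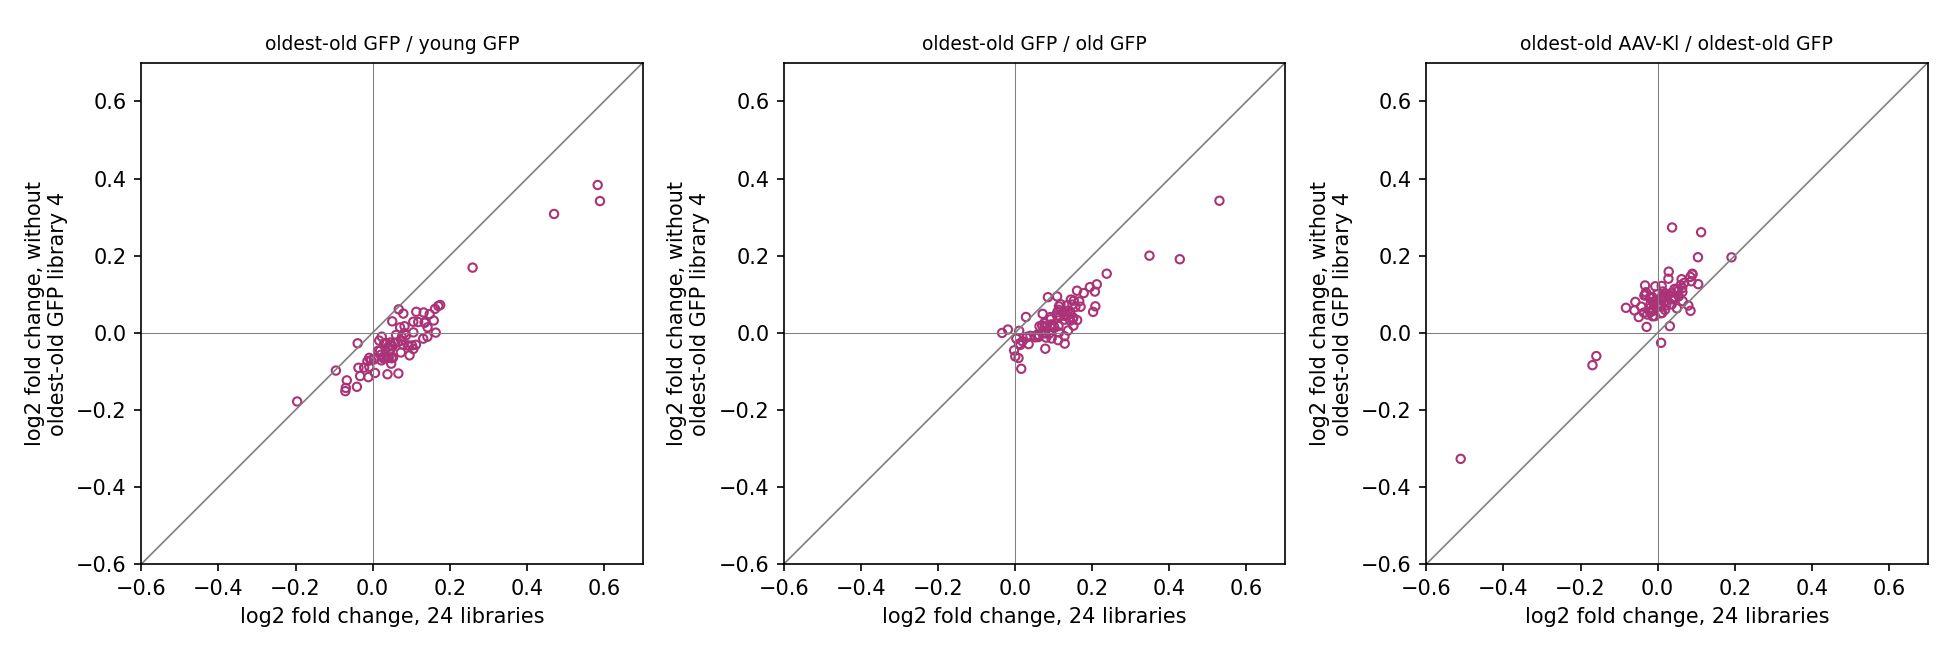
Log2 fold changes of the 81 members with 24 libraries (x axis) and without oldest-old GFP library 4 (y axis), for the 3 comparisons that use the oldest-old GFP group, with the line of equality. Without the library the points lie lower in the first and second panels (medians 0.053 to -0.031 and 0.11 to 0.025) and higher in the third (0.012 to 0.087).

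Klotho treatment was compared with GFP at both ages, the question being whether muscle of aged mice responds to the hormone. In old mice the median log2 fold change of the members was 0.034 (62 of 81 above 0), against 0.0076 for all genes. No member and none of the 17803 genes was called by edgeR or DESeq2. At an unadjusted p under 0.05 there were 2 members, Rps23 higher (0.16 ± 0.068 SE) and Rpl7l1, a relative of Rpl7 found in the nucleolus, lower (-0.12 ± 0.057), each with an adjusted p of 1.0. Of all genes 2.15% did so, 1.17% higher. The positive median rested on old KL library 2, the highest of its group in 74 of 81 members, and was -0.018 without it (27 of 81 above 0). That library also had the most adipocyte (1066 against 238 to 265 CPM), keratinocyte (40.9 against 0.653 to 1.116 CPM) and neutrophil transcripts (6.22 against 0.864 to 2.40 CPM) of its group, and their part was not tested. For Rpl3l the log2 fold change was -0.012 (95% interval -0.15 to 0.12) and for Rpl3 0.25 (-0.18 to 0.68), the wider interval.

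In oldest-old mice the median was 0.012 (49 of 81 above 0), as for all genes (0.012). No member was called by edgeR or DESeq2 (0.0112% of all genes by edgeR), and 0 members had an unadjusted p under 0.05, against 8.08% of all genes (4.06% higher and 4.02% lower). The lowest p belonged to Rps27l, a p53-inducible relative of Rps27 (0.19 ± 0.094 SE, adjusted p = 0.622). For Rpl3l the log2 fold change was 0.0089 (95% interval -0.13 to 0.15) and for Rpl3 0.11 (-0.31 to 0.54). Without oldest-old GFP library 4, however, 77 of 81 members were above 0, with a median of 0.087. In 14 of the 81 members every KL library was then higher than each of the 3 remaining GFP libraries, and in 0 every one lower. Of all genes, 2.44% and 2.21% did so. Library 4 was left out for its high level of these same members, so those shares are no fair background for the 14. With all libraries the groups did not overlap in 0 members, against 2.65% of all genes. Without library 4 no member was called either (0.022% of all genes), with 7 members at an unadjusted p under 0.05. The share of all genes at that p was not counted in this fit. The difference between the Klotho effects at the 2 ages was tested as an interaction and called 0 members (0.00562% of all genes), with 1, Rpl7l1, at an unadjusted p under 0.05 (0.21 ± 0.080 SE, adjusted p = 0.831). Of all genes 5.76% did so (2.7% higher, 3.07% lower). Without oldest-old GFP library 4 the median of the interaction turned from -0.032 to 0.050.

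Young GFP and young sham mice differ in the vector and in whatever the sham procedure was, which cannot be told apart. The median log2 fold change of the members was 0.071 (71 of 81 above 0), against -0.025 for all genes. The SD of the members' mean log2 CPM between libraries of a group, pooled over all 6 groups, was 0.077. That pool includes oldest-old GFP library 4 and old KL library 2, which are not in this comparison. The mean was 6.513 to 6.631 in young GFP and 6.452 to 6.514 in sham libraries, an overlap through sham library 1. None was called by edgeR (0.472% of all genes, 0.281% higher), and DESeq2 called Rpl35a, with its share of all genes not given here. At an unadjusted p under 0.05, 5 members were higher and 1 lower (4.8% and 8.62% of all genes). The 5 were the large-subunit genes Rpl35a (0.11 ± 0.043 SE), Rpl15 (0.12 ± 0.046), Rpl39 (0.19 ± 0.073) and Rpl22l1 (0.32 ± 0.13), a relative of Rpl22, and the small-subunit gene Rps13 (0.14 ± 0.061), with adjusted p of 0.257 to 0.331. The lower gene was Rps10. In 11 members (13.6%) every GFP library was the higher, as in 4.57% of all genes, and in 1 the lower, as in 5.19%. At an unadjusted p under 0.05, the 5 higher members became 15 with DESeq2's size factors in edgeR. They became 22 when only these 2 groups were fitted, and 22 in the fit without oldest-old GFP library 4. The share of all genes at that p was not counted in these fits, so these counts have no background. Markers of other cells were lower in young GFP mice in most lists, though 0 passed the adjusted threshold: at an unadjusted p under 0.05, 4 of 5 macrophage markers were lower (median log2 fold change -0.81), 3 of 5 endothelial (-0.23) and 5 of 8 hepatocyte markers (-5.25). Macrophage markers summed to 41.9 to 80.02 CPM in sham and 26.5 to 44.5 CPM in GFP mice, and hepatocyte markers to 0.129 to 22.9 and 0.164 to 1.254 CPM. Adipocyte markers were 191 to 785 and 170 to 706 CPM, and keratinocyte markers 1.70 to 88.8 and 0.942 to 282 CPM. Their part in the difference was not tested.

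Relatives of other members had lower read levels than the genes they resemble. Rps27l was at 22.7 ± 2.62 CPM (SD, n = 24) beside Rps27 at 102 ± 11.7, with 98.6% of the 50-base stretches of Rps27 found in other genes. Rpl22l1 was at 4.43 ± 0.616 CPM beside Rpl22 at 91.3 ± 5.91, and Rpl7l1 at 29.1 ± 1.90 beside Rpl7 at 228 ± 14.96. Highest and lowest group means of Rpl22l1 were 1.29-fold apart. Within-group SDs of log2 CPM of the stalk genes were 0.10 for Rplp0, 0.084 for Rplp1 and 0.11 for Rplp2, near the median member. Rplp0 was 636 to 677 CPM in young GFP mice, 600 to 627 in old GFP and 654 to 845 in oldest-old GFP mice. Every old GFP library was below every young GFP and every oldest-old GFP one, and the young and oldest-old GFP libraries overlapped. In young sham mice, however, Rplp0 was 628 CPM in library 1 and 581 to 588 in the others, so most of these young libraries lay below the old GFP range. Rpsa, which also serves as a laminin receptor precursor, was 440 ± 30.7 CPM over all libraries, and Rps4x, the X-linked form of Rps4, 239 ± 17.05.

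Other genes of the translation machinery were counted from lists. In old against young, oldest-old against old, both Klotho comparisons and young GFP against sham mice, 0 genes were called by edgeR among 4 further ribosomal protein genes such as Rack1 and Fau, 32 initiation factors, 9 elongation factors, 38 ribosome biogenesis genes, 16 regulators of TOP mRNAs and mTORC1 and 8 snoRNA host genes. Oldest-old against young GFP mice gave 9 called genes in edgeR, of the 107 (8.41%), a smaller share than the 14.9% of all genes. Higher were the initiation factor genes Eif3c (0.26 ± 0.076 SE), Eif3g (0.32 ± 0.090) and Eif5b (0.29 ± 0.076), and lower was Eif4e (-0.29 ± 0.088), whose product binds the mRNA cap. Eef2, which moves the ribosome along the mRNA, was higher (0.36 ± 0.12), while Eef1a1 was at 0.29 ± 0.21 and Eef1a2 at -0.063 ± 0.065, with adjusted p of 0.396 and 0.570. Among biogenesis genes Ubtf, a factor of RNA polymerase I (0.27 ± 0.056), and Utp20, of the small-subunit processome (0.40 ± 0.10), were higher and Nop10, of the H/ACA snoRNPs, lower (-0.17 ± 0.052). Among the regulators Myc, a transcription factor that drives ribosome biogenesis, was higher (0.68 ± 0.22). Adjusted p of the 9 lay between 0.00363 and 0.0458. The list medians were 0.064 for initiation, 0.016 for elongation, 0.10 for biogenesis, 0.045 for the regulators, 0.041 for the host genes and 0.076 for the further ribosomal proteins, against 0.027 for all genes. Without oldest-old GFP library 4 only 1 biogenesis gene higher and 1 lower were called in these lists, where 9.99% of all genes were called. In the same comparison the fast myosin gene Myh4 (-0.33 ± 0.11) and Pvalb (-0.65 ± 0.16) were lower and Myh1 (0.64 ± 0.16) and the slow Myh7 (1.75 ± 0.36) higher, as were 5 of 5 erythroid and 3 of 3 neutrophil markers, 1 of 5 endothelial and 1 of 5 B and plasma cell markers, while 4 of 5 keratinocyte and 1 of 5 fibroblast markers were lower. Without oldest-old GFP library 4, 0 erythroid, 0 neutrophil and 0 keratinocyte markers were called, 2 of 5 endothelial and 1 of 5 B and plasma cell markers were higher, and 1 of 5 fibroblast markers was lower. Of the 10 muscle fibre markers 2 were called higher and 1 lower in that fit, in place of 2 and 2 with all libraries. The part of fibre type or of these cells in the values of Rpl3l and Rps20 was not tested.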

How the data were processed

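Gastrocnemius RNA of 24 mice was sequenced. The authors aligned the reads with STAR 2.7.0a to GRCm38 (mm10) and deposited, for each library, raw read counts per gene. The annotation release is not given in the sources used here, and 55144 of 55385 gene IDs matched GENCODE M21. The unstranded counts of uniquely placed reads were used, since the 2 strand columns held nearly equal shares. The members and lists were chosen with earlier results of these data known. edgeR 4.0.16 (R 4.3.3) fitted all 24 libraries with group as the only term (TMM factors, filterByExpr, 17803 genes, quasi-likelihood test) and Benjamini-Hochberg adjustment over all genes. The script was tested on simulated data. Libraries are of separate mice. Genes named were Rpl3, Rpl3l, members with a paralog, the stalk genes, Rpsa, the extremes per kilobase, members called or of lowest unadjusted p (those under 0.05), and list genes called, with Eef1a1 and Eef1a2; a few are not reported here by name. Lengths are of 1 transcript per gene. Alternatives included DESeq2 1.42.0, its size factors, TMM without the members, no filter, other sets of libraries, summed strand columns and a replicate block. The ratio of Rpl3l to Rpl3 was tested with scipy 1.17.1.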

Additional observations from a re-analysis of the deposited data

Results flagged for a closer look

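In a search of 27 measures in 6 groups of 4 libraries, 18 of 162 cases had a library far from the other 3 by Dixon's criterion, where chance gives about 1 in 20. Oldest-old GFP library 4 accounted for 6: summed members 13092 CPM (others 10800 to 11030), Rps27 143 (98.0 to 102), Rps4x 290 (227 to 232), Rplp1 252 (211 to 216), Rplp2 132 (106 to 109) and Rps16 129 (104 to 108). Old KL library 2 accounted for 4: summed members 12100 CPM (others 10443 to 10672), Rps7 152 (128 to 131), Rplp2 123 (105 to 107) and Rpl39 24.95 (20.4 to 21.2). Young sham library 1 had 4: Rplp0 628 CPM (581 to 588), Rps20 106 (92.1 to 93.1), Rpl15 105 (98.9 to 99.5) and Rps27l 23.9 (19.1 to 19.4). In oldest-old KL mice, library 3 had Rplp0 at 862 CPM (683 to 703) and library 2 Rpl22 at 88.6 (92.2 to 92.8). Among young GFP mice, library 3 had Rps27 at 106 CPM (95.7 to 97.3) and library 1 Rpl15 at 105 (110 to 111). These measures share libraries and are not independent of each other.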

How the results depend on the processing

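The number of members called moved with the setting in a few comparisons. Except for fits without oldest-old GFP library 4, the share of all genes called under the alternative settings is not given here. Those counts therefore have no background. Oldest-old against young GFP mice had 2 called, 1 with DESeq2 size factors in edgeR, 1 with summed strand columns, 0 without a filter, 0 with only the groups compared, 0 without old GFP libraries 1 and 4, and 0 with the replicate block (Rpl3l adjusted p = 0.0604, Rps20 0.0522). With 1 library left out it ranged from 0 to 2, and old against young GFP mice from 0 to 1. DESeq2 called 1 in old against young GFP mice and 1 in young GFP against sham mice. Counts at an unadjusted p under 0.05 were 7 for old against young GFP, 4 for oldest-old against young GFP, 6 for oldest-old against old GFP, 2 for old KL, 6 for young GFP against sham and 1 for the interaction. The share of all genes at that p was not counted in the fits that left out 1 library, so their counts have no background. With 1 library left out, members lower at that p numbered 4 (without old GFP library 2) to 13 (without oldest-old GFP library 4) for old against young GFP. Members higher numbered 1 (without oldest-old GFP library 4 or young GFP library 1, 2 or 4) to 8 (without oldest-old GFP library 2) for oldest-old against young GFP, 1 to 18 for oldest-old against old GFP (without oldest-old GFP libraries 4 and 2), 0 to 2 for old KL, 0 to 7 for oldest-old KL (7 without GFP library 4), and 4 to 22 for young GFP against sham (4 without sham library 3 or 4, 22 without sham library 1 or oldest-old GFP library 4). The median of the members ranged, with 1 library left out, from -0.031 to 0.085 for oldest-old against young GFP and from 0.025 to 0.14 for oldest-old against old GFP mice. The ratio of Rpl3l to Rpl3 for oldest-old KL against GFP mice ranged from -0.26 to 0.050, with 0.028 without oldest-old GFP library 2 and 0.050 without oldest-old KL library 2. In old KL mice Rpl3l ranged from -0.049 to 0.0059 with 1 library left out. It turned to 0.0030 in old KL mice without old GFP libraries 1 and 4, 0.0058 without old KL library 2 and 0.0059 without old KL library 3, and in oldest-old KL mice to -0.026 without GFP library 4, -0.015 without KL library 3 and -0.021 without KL library 4. The level ratio of Rpl3l to Rpl3 was 7.13 per kilobase and 1.03 per kilobase of unshared stretches. Apart from the reasons given by fewer libraries or genes, the cause was not tested. The sources used here name no pairing of mice by replicate number. Correlations of same-numbered deviations averaged -0.16 to 0.013 over the 6 comparisons, which cannot exclude a shared batch. In oldest-old KL against GFP mice they lay between -0.23 and -0.12, against a mean of 0.056 for libraries of unlike number. The block changed no other call. Members with few reads, Rpl24, Rps10 and Rpl13a, and those with many shared stretches are limited by reads lost to other gene models.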

Other observations

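Start-site pyrimidine runs of the same definition were found in 5 of 7 elongation factor genes with a RefSeq start, 11 of 25 initiation factor genes and 6 of 32 ribosome biogenesis genes, against 48 of 61 members. Reads on annotated ribosomal protein pseudogenes amounted to 0.906% to 1.55% of those on the members. Klotho itself had 0 to 33 reads in the muscle libraries, with 3 to 9 in old KL and 2 to 9 in oldest-old KL mice, against 0 to 13 in old GFP, 1 to 6 in oldest-old GFP and 14 to 18 in young GFP mice.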
